A study of Homo sapiens with 6 samples.

Results

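The S100 family of small calcium-binding proteins was described in HGC-27 cells, an undifferentiated human gastric cancer line, in 6 RNA-seq libraries. The 10 genes described were S100A2, S100A3, S100A4, S100A6, S100A10, S100A11, S100A13, S100A14, S100A16 and S100P, found by symbol among the 21 S100 genes and 62443 genes in all of the expression table. The family was taken up because S100A4 was higher in every treated library, so S100A4 was selected on its FPKM in the same contrast as is described here. Its values are therefore given as a description with no test, and the question asked of the other 9 was whether they moved with it. The control group (Con, n = 3) had no treatment according to the labels, and the study's methods give the peptide's buffer as the negative control. The treated group (GLUP, n = 3) received the GLUP peptide, a cyclic peptide built from the TEAD4-binding part of VGLL4 and designed to bring TEAD4 molecules together. TEAD4 is a DNA-binding partner of the co-activator YAP in the Hippo pathway. The study's methods speak of biological replicates for the RNA, but the labels do not say which libraries came from separate cultures, so part of the spread between them may be technical.

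S100 proteins are small EF-hand proteins that mostly work as dimers: calcium binding opens a surface that docks onto a target such as an annexin, a myosin heavy chain or a cytoskeletal scaffold. They have no enzymatic activity of their own, and several are also released and bind receptors such as RAGE. Most of the human family lies in a cluster at chromosome 1q21, where S100A4, also called metastasin or fibroblast-specific protein, lies between S100A6 and S100A2 and is known for its link to cell motility and metastasis. S100P lies apart, on chromosome 4.

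All values are FPKM, a level scaled to transcript length and to library total, so levels can be compared between genes. Fold changes are differences of the group means of log2(FPKM + 1), GLUP minus Con, from a limma fit over 7406 genes whose mean over the 6 libraries was 1 FPKM or more. Of the 10 S100 genes, 8 passed that minimum. S100A6 passed with a mean of 1.31 FPKM that rested on 1 control library, S100A3 with 1.06 FPKM, and S100A14 and S100P lay far below it, so the 8 do not stand for all 10. Across the 7406 genes none (0%) had an adjusted p under 0.05, 1606 (21.7%) had an unadjusted p under 0.05, and the median log2 fold change was −0.23. The libraries held 20061 to 21498 genes above 0. No read counts could be recovered, so the depth is unknown and the precision of low values cannot be given. The most frequent bin of FPKM times transcript length among low values held only 1.63 to 2.19% of them per library. Taken as a rough guide, it put the relative depths between 0.832 in Con 2 and 1 in GLUP 2. Con 3 resembled the GLUP libraries in how its deviations from the mean of the 6 libraries followed the GC content of genes (Spearman correlation across genes 0.458, against 0.340 to 0.544 in GLUP), whereas Con 1 and Con 2 had correlations of −0.343 and −0.601.

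The marker genes put limits on the cell identity that the label gives. The epithelial genes EPCAM and CDH1 reached at most 0.124 and 0.0799 FPKM, the keratins KRT8, KRT18 and KRT19 averaged 1.47, 0.959 and 0.865 FPKM in Con and 2.25, 2.14 and 1.30 FPKM in GLUP, and the mesenchymal intermediate filament gene VIM averaged 367.0 and 283.8 FPKM. The mesenchymal cadherin gene CDH2, however, read 0.0508, 0.0062 and 0.0133 FPKM in Con and 0 in every GLUP library. Of 7 fibroblast genes 4 passed the minimum, among them the matrix genes LUM and DCN, and their 7-gene sum spanned 88.1 to 125.5 FPKM in Con and 92.9 to 123.7 FPKM in GLUP. The ranges of this sum overlapped. LUM alone read 47.2 to 75.3 FPKM in Con and 60.7 to 76.7 FPKM in GLUP, so the sum does not speak for each gene. Of the 4 genes, 3 had a higher mean in GLUP and DCN a lower one, with a log2 fold change of −0.55. Any link of these genes to the S100A4 values was not tested. Leukocyte genes summed to at most 0.289 FPKM and the endothelial genes VWF, CDH5 and KDR to at most 0.0059 FPKM in any library. The endothelial gene PECAM1 was also listed but was not found by symbol. Of 5 genes of squamous epithelium, KRT5, KRT14, KRT1 and IVL were listed at 0 throughout. The fifth, KRT10, read 2.96, 6.20 and 2.42 FPKM in Con and 2.00, 0.644 and 1.35 FPKM in GLUP, wholly lower in GLUP with a log2 fold change of −1.02 (SE 0.34, limma adjusted p = 0.198), and its part in the S100 values was not tested. Fewer cells expressing a gene and less RNA per cell cannot be told apart in such bulk libraries.

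S100A4 (ENSG00000196154) lies on the minus strand of chromosome 1 at 153516089 to 153522612 (GRCh37, GENCODE). It was measured at 67.1, 74.5 and 84.4 FPKM in Con 1, 2 and 3 and at 190.1, 230.1 and 387.6 FPKM in GLUP 1, 2 and 3. Every GLUP library lay above every Con library, and GLUP 3 stood above the other GLUP libraries. The mean went from 75.3 ± 8.68 to 269.3 ± 104.4 FPKM (SD, n = 3 each), a ratio of 3.57 and a log2 fold change of 1.76 (SE 0.33). Relative to the median of all genes tested this was 1.99, and it ranked 17 of 7406 when genes were ordered by rise. Within each library S100A4 moved from rank 639 to 797 of the 7406 genes by level in Con to rank 294 to 398 in GLUP. Its canonical transcript, at 513 bases with 51.5% GC, is shorter than that of the median gene tested (2226 bases) and somewhat richer in GC (median 47.2%). After each library was corrected for the GC content and length of genes, the log2 fold change stayed at 1.76. The median of all genes moved from −0.23 to 0.01, so the rise relative to that median became smaller.

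**Figure D1:**
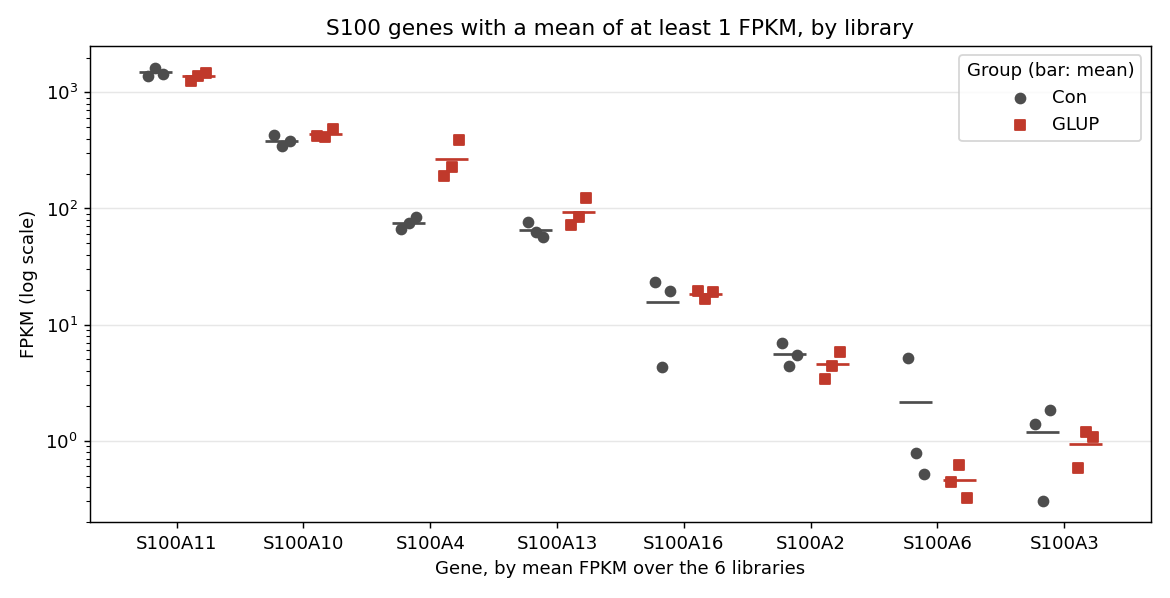
FPKM (log scale) of the 8 S100 genes whose mean reached 1 FPKM, in order of level, with 1 point per library and a bar at the group mean (circles, Con; squares, GLUP). S100A4, chosen for this trait, is the 1 gene of the 8 whose GLUP points all lie above its Con points. For S100A6 a single Con library at 5.18 FPKM sets the Con mean.

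The annexin partners S100A10 and S100A11 were the most abundant of the family, and neither separated the groups. S100A11, which binds annexin A1 and takes part in membrane repair and keratinocyte growth control, stood at 1395, 1638 and 1454 FPKM in Con and at 1258, 1380 and 1481 FPKM in GLUP. The groups overlapped, with a log2 fold change of −0.12 (SE 0.23), or −0.06 without Con 2 or without GLUP 1. S100A10, or p11, is the light chain of the annexin A2 complex and is unusual in the family in that it no longer needs calcium to bind its target. It stood at 427.5, 348.7 and 380.0 FPKM in Con and at 424.1, 412.6 and 488.4 FPKM in GLUP, again with overlap, and its log2 fold change was 0.20 (SE 0.26), or 0.12 without GLUP 3. S100A11 (ENSG00000163191) at 152004982 to 152020383 and S100A10 (ENSG00000197747) at 151955391 to 151966335 form the far end of the 1q21 family, more than 1 Mb from S100A4.

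S100A13 and S100A16, the broadly expressed members, lie close to S100A4 on the other side of S100A2. S100A13 (ENSG00000189171, 153591263 to 153603836), which helps export FGF1 from cells, stood at 76.8, 62.7 and 56.7 FPKM in Con and at 71.6, 84.8 and 124.1 FPKM in GLUP. GLUP 2 and GLUP 3 were above all Con libraries, but GLUP 1 was below Con 1. The mean went from 65.4 ± 10.3 to 93.5 ± 27.3 FPKM (SD, n = 3 each), with a log2 fold change of 0.48 (SE 0.32) that was 0.26 without GLUP 3. S100A13 and S100A4 both had their highest value in GLUP 3. The levels of the pair overlapped in Con and were separate in GLUP, where the lowest S100A4 value was above the highest S100A13 value. S100A13 shares 536 annotated exon bases with ENSG00000271853 on its own strand and 235 with S100A1 on the opposite strand, and the strandedness of the counting is not given in the sources used here. ENSG00000271853 reached 1.42 FPKM at most and S100A1 0.235 FPKM, against at least 56.7 FPKM for S100A13. S100A16 (ENSG00000188643, 153579362 to 153585621) stood at 23.5, 4.35 and 19.5 FPKM in Con and at 19.6, 16.5 and 19.2 FPKM in GLUP. Its log2 fold change of 0.48 (SE 0.52) came from the low value in Con 2: without Con 2 it was −0.21.

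The remaining members were low. S100A2 (ENSG00000196754, 153533584 to 153540366), an epithelial gene whose protein binds p53, stood at 6.98, 4.40 and 5.42 FPKM in Con and at 3.37, 4.39 and 5.83 FPKM in GLUP, with a log2 fold change of −0.26 (SE 0.29) that was −0.11 without Con 1 and −0.10 without GLUP 1. S100A6, or calcyclin (ENSG00000197956, 153507075 to 153508720), stood at 5.18, 0.777 and 0.520 FPKM in Con and at 0.443, 0.617 and 0.320 FPKM in GLUP. Con 1 alone was high, and the log2 fold change of −0.81 (SE 0.45) was −0.18 without Con 1. S100A6 shares 37 annotated exon bases with ENSG00000238279 on the opposite strand. That gene read 0, 0.481 and 0.516 FPKM in Con and 0.828, 0.680 and 0.714 FPKM in GLUP. Its part in the S100A6 values was not tested. S100A3 (ENSG00000188015, 153519805 to 153521734), known as a protein of the hair cuticle, stood at 1.40, 0.304 and 1.84 FPKM in Con and at 0.575, 1.17 and 1.08 FPKM in GLUP, with a log2 fold change of −0.11 (SE 0.30). It turned to 0.12 without Con 3 and to 0.04 without GLUP 1. Both S100A6 and S100A3 reached the 1 FPKM minimum through their Con values, so the sign of their changes is not independent of that filter. S100A6 and S100A3 overlapped in level in both groups.

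S100A3 is the closest neighbour of S100A4: its 1930 bp lie wholly within the annotated span of S100A4, on the same strand. The annotated exons of the pair share 0 bases, so reads within exons can be assigned to one or the other. S100A3 was not higher in GLUP alongside S100A4, and its highest value, 1.84 FPKM, was in Con 3. S100A14 (epithelial) was listed at 0 except for 0.0545 FPKM in Con 2. S100P, first found in placenta, was listed at 0.276 FPKM in Con 2, 0.0877 FPKM in GLUP 2 and 0.207 FPKM in GLUP 3, and at 0 elsewhere. Of the 11 S100 genes outside the 10, S100A1, S100A5, S100A7 and S100A8 reached at most 0.235 FPKM, and S100A7A, S100A7L2, S100A9, S100A12, S100B, S100G and S100Z were listed at 0 in all 6 libraries.

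Among the 8 S100 genes tested, 4 had a higher mean in GLUP and 4 a lower one, or 3 and 4 without S100A4. Over all genes, 34.5% were higher in GLUP. The GLUP values of S100A4 lay above all its Con values, which is the trait it was chosen for. Of the other 7, 0 were wholly above and 0 wholly below, where 7.55% of all genes were wholly above and 22.7% wholly below. None of the 8 had an adjusted p under 0.05 by limma. With Con 3 left out, 2.2% of all genes were called higher and 16.3% lower at an adjusted p under 0.05; 1 of the 8 was then called, S100A4, and nothing is read from it since this contrast chose the gene. The median log2 fold change was 0.04 over the 8 and −0.11 over the 7 without S100A4, above the median of −0.23 of all genes tested. Scaling by trimmed means of log ratios or centring on the median moved the median of all genes up by 0.22 and 0.26, and the members other than S100A4 with a higher mean then numbered 5 and 6 of 7 in place of 3. Over all genes 49.1% and 52.5% were then higher. After the GC and length correction the number stayed at 3 of 7, with 50.9% of all genes higher.

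Because S100A10 and S100A11 carry most of the family's transcripts, the summed S100 level changed less than S100A4 itself. The sum was 2004, 2134 and 2003 FPKM in Con and 1967, 2130 and 2508 FPKM in GLUP, so the groups overlapped and GLUP 3 was the highest. S100A4 made up 3.35%, 3.49% and 4.21% of it in Con and 9.66%, 10.8% and 15.5% in GLUP. The share of S100A11 was 69.6%, 76.7% and 72.6% in Con and 63.9%, 64.8% and 59.0% in GLUP. On the log2 scale the S100A4 level exceeded the mean level of the other 7 tested members by 0.81, 1.78 and 1.55 in Con and by 2.88, 3.01 and 3.60 in GLUP.

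**Figure D2:**
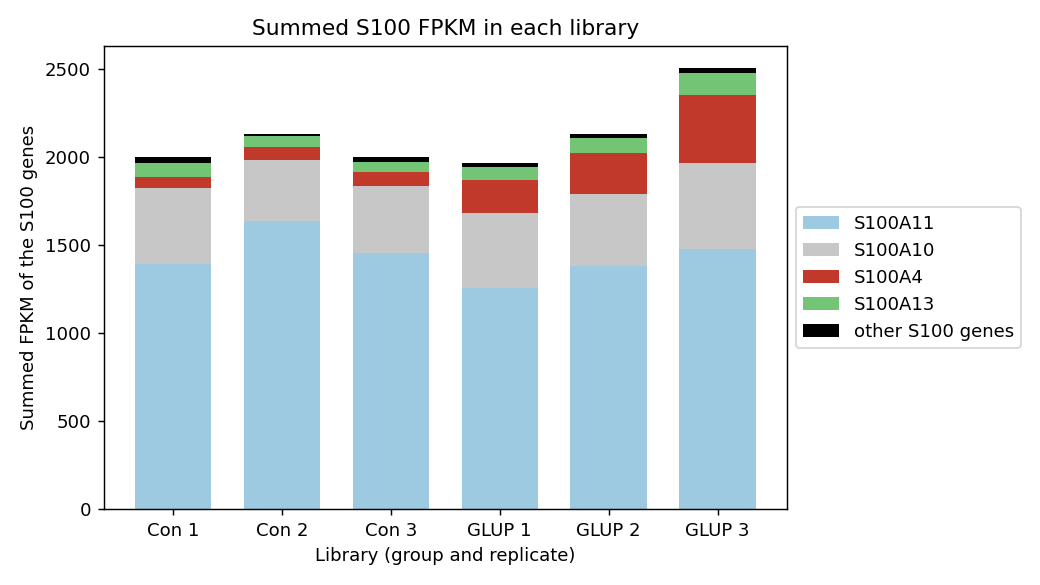
Summed FPKM of the S100 genes in each library, stacked by gene. S100A11 and S100A10 form most of each bar; the S100A4 part grew from 3.35 to 4.21% of the sum in Con to 9.66 to 15.5% in GLUP, while the sum of GLUP 1 and GLUP 2 stayed within 2134 FPKM, the highest Con sum.

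The promoters of S100A4, S100A3 and S100A16 are shown because S100A4 carries the change, S100A3 is its overlapping neighbour and S100A16 is the member whose windows hold a TEAD motif. The windows run from 250 bases before to 50 after the annotated start (RefSeq, GRCh38.p14), and all 10 members matched, with 14 windows. Capitals mark a match to the TEAD core GGAATG or to the AP-1 motif TGANTCA, searched on both strands.
S100A4 (chr1:153545757-153546056, minus strand): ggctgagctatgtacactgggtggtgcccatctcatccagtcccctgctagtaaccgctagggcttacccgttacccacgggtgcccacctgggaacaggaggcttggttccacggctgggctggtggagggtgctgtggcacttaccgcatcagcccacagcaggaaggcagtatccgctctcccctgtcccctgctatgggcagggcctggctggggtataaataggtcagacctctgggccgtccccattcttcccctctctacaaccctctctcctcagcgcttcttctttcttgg
S100A3 (chr1:153549209-153549508, minus strand): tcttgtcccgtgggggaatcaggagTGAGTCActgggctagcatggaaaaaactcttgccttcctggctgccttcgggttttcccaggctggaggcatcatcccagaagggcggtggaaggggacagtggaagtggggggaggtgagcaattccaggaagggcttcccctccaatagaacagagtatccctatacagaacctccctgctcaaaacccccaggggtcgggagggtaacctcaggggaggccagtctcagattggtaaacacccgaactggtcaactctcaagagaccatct
S100A16, upstream window (chr1:153613088-153613387, minus strand): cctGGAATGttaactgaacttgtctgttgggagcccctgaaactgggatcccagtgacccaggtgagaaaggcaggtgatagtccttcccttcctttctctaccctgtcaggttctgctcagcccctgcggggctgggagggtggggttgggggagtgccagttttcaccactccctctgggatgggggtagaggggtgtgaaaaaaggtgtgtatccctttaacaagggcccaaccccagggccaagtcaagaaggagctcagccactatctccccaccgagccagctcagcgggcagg
S100A16, downstream window (chr1:153609306-153609605, minus strand): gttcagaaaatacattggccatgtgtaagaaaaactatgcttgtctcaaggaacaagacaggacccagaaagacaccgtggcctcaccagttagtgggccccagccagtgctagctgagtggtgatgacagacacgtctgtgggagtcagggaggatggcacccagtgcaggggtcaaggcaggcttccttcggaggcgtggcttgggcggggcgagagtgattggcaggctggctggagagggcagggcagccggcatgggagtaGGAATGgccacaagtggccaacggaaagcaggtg
The S100A4 window holds neither motif. It lies downstream of the S100A3 window, whereas the GENCODE span of S100A4 reaches upstream beyond S100A3. The upstream end of that span was not searched. GGAATG occurs in 2 of the 14 windows, both of S100A16, at positions −247 and 16 relative to the start. It occurs in 4928 (14.03%) of all 35116 promoter windows of this length. TGANTCA occurs in 2 of the 14, in S100A3 and in 1 window of S100A2, against 7.71% of all windows. These letters describe the windows shown and not binding, and distal elements were not searched.

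Around S100A4, 117 genes outside the S100 family had their lowest coordinate within 1 Mb of that of S100A4. This coordinate is the 3' end of a minus-strand gene such as S100A4, and distances were taken between these coordinates. Many of the 117 are genes of the skin barrier, and 66 of them were listed at 0 in every library. Of the 14 that passed the minimum, 10 had a higher mean in GLUP and 4 a lower one, with a median log2 fold change of 0.13 and a range of −0.41 to 0.92. All 14 lay at higher coordinates than S100A4, from CHTOP at 90.4 kb to HAX1 at 728.7 kb, so the other flank is not described. Over all genes tested 34.5% were higher in GLUP, and the median was −0.23. The median of the 14 was 0.31 without Con 1, 0.06 without Con 2 and 0.23 without GLUP 3. None had an adjusted p under 0.05. SLC39A1, a zinc importer 415.5 kb away, was the highest at 0.92 (SE 0.45, limma adjusted p = 0.254), and 0.44 without Con 2. Its libraries read 9.55, 2.85 and 9.19 FPKM in Con and 19.4, 13.3 and 8.53 FPKM in GLUP, so the groups overlapped. HAX1, a mitochondrial anti-apoptotic protein gene, followed at 0.47 (SE 0.37), and was 0.11 without Con 2. JTB, a gene with a role in cell division, was the lowest at −0.41 (SE 0.27), and ENSG00000285641 was at −0.27 (SE 0.76), turning to 0.68 without Con 2. RAB13 (0.43, and 0.11 without Con 2) and RPS27 (0.36) were wholly higher in GLUP and JTB wholly lower, where 7.55% and 22.7% of all genes were; RAB13 and RPS27 are named after their values were seen. None of the 14 reached the change of S100A4. That gene was chosen for its rise in this contrast and ranked 17 of 7406. Few genes of the table could reach it, so nothing is read from this.

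**Figure D3:**
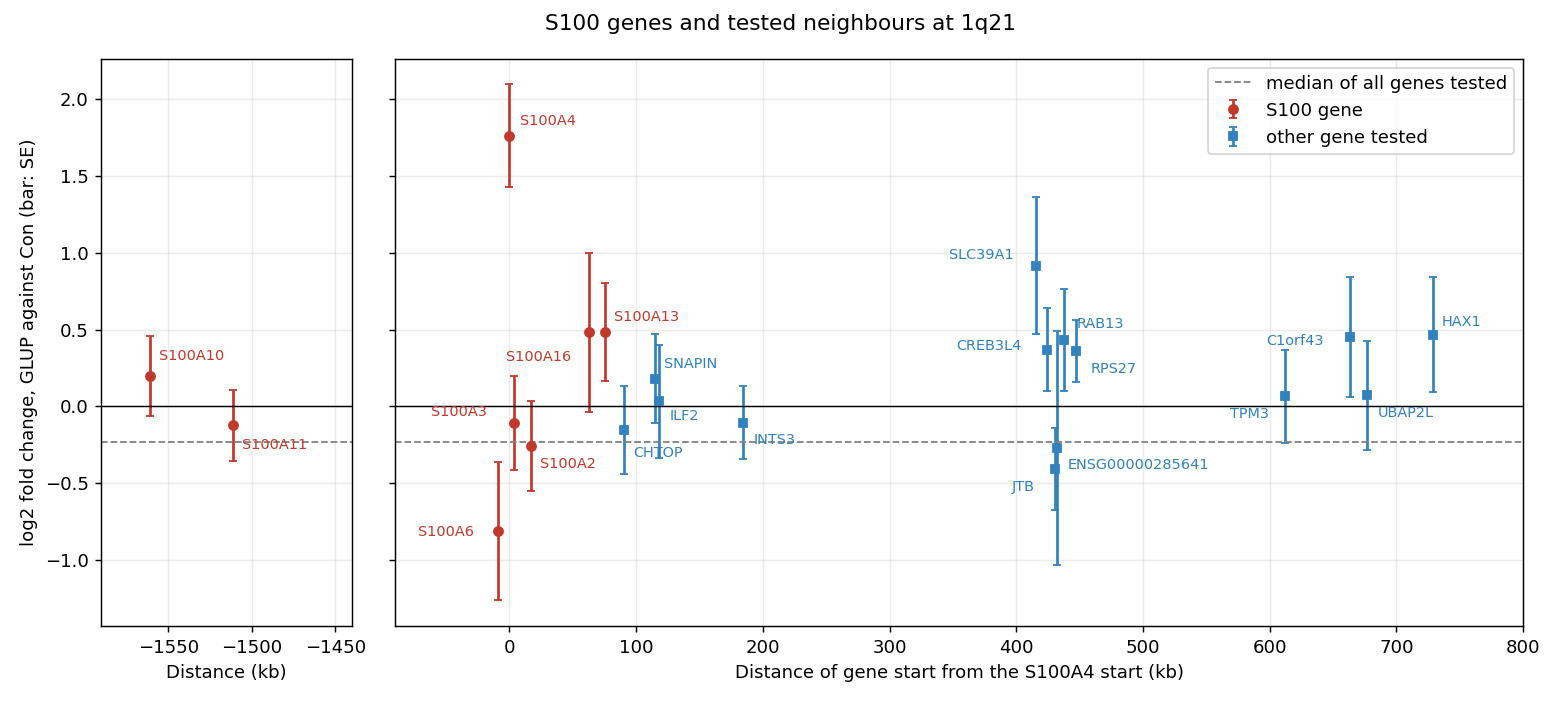
Log2 fold change (GLUP minus Con, bars SE) of S100 genes (circles) and of the 14 other genes tested (squares) at 1q21. The axis gives the distance of each gene's lowest coordinate from that of S100A4 in kb, labelled as the gene start. The left panel holds S100A10 and S100A11, and the dashed line is the median of all genes tested, −0.23. S100A4 stands at 1.76, and its 14 neighbours lie between −0.41 and 0.92; S100A6 and S100A3 passed the minimum through their Con values, so their place below 0 is not independent of the filter.

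The targets of S100 proteins tended to be lower, as most genes were. Of 16 binding partners 13 passed the minimum; 2 had a higher mean in GLUP and 11 a lower one, 3 of them (ANXA1, SUGT1 and EZR) with all GLUP values below all Con values. This share is near the 22.7% of all genes that were wholly below; EZR is named after its values were seen. The median was −0.43, and −0.16 without Con 2 and −0.03 after the GC and length correction. ANXA1, the partner of S100A11 and a phospholipid-binding annexin, was measured at 2386, 1754 and 1631 FPKM in Con and at 745.1, 920.9 and 836.5 FPKM in GLUP. These groups did not overlap, and the log2 fold change was −1.19 (SE 0.26, limma adjusted p = 0.194), or −0.66 after the GC and length correction. SUGT1, a co-chaperone bound by S100A6, was at −1.03 (SE 0.36, limma adjusted p = 0.198), or −0.49 after it. AHNAK, a giant scaffold bound by S100A10 with annexin A2, and ANXA6 were the highest, at 0.11 (SE 0.27) and 0.10 (SE 0.24). MYH9, the non-muscle myosin heavy chain to which S100A4 binds, was named for that role: its mean was 1.20 ± 0.446 FPKM in Con and 1.15 ± 0.368 FPKM in GLUP (SD, n = 3 each), with a log2 fold change of −0.03 (SE 0.24). ANXA2, named as the partner of S100A10, read 3798, 1423 and 3227 FPKM in Con and 2517, 2627 and 2262 FPKM in GLUP, so that its groups overlapped.

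Of 8 receptor and plasminogen genes, 2 passed the minimum. BSG, which encodes the surface glycoprotein basigin, read 39.2, 23.4 and 61.4 FPKM in Con and 80.2, 76.2 and 85.0 FPKM in GLUP. All GLUP values were above all Con values, with a log2 fold change of 1.05 (SE 0.37, limma adjusted p = 0.198) that was 0.67 after the GC and length correction. PLAUR, the urokinase receptor gene, was at −0.32 (SE 0.28). AGER, which encodes RAGE, stayed at or below 0.524 FPKM, and TLR4 and the plasminogen gene PLG were listed at 0. Of 26 other EF-hand genes, the calmodulins and myosin light chains among them, 20 passed the minimum: 4 had a higher mean in GLUP and 16 a lower one, 9 with all GLUP values below all Con values and none above. Over all genes 34.5% were higher, 22.7% wholly below and 7.55% wholly above. The median of the 20 was −0.49, and −0.32 without Con 2 and −0.23 after that correction. The lowest were NUCB2 at −1.26 (SE 0.41) and CALU, which encodes a calcium-binding protein of the endoplasmic reticulum, at −1.26 (SE 0.36), which became −0.63 and −0.77 after the correction, and the highest were NUCB1 at 0.39 (SE 0.28), or 0.09 after it, and LETM1 at 0.15 (SE 0.35). None of the 20 had an adjusted p under 0.05.

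Among the 6224 protein-coding genes compared, those whose log2 levels followed S100A4 most closely over the 6 libraries lay outside the family. They were the metallothionein genes MT1X and MT2A, which encode metal-binding proteins, CSTB, a cysteine protease inhibitor, RPL27A, a protein of the large ribosomal subunit, and C1orf53, with Pearson correlations of 0.98 to 0.99. These correlations span both groups and the same 6 libraries, and each gene had all GLUP values above all Con values, so they are given as a measure of likeness with no p. Only 7 of the 6224 genes were S100 genes, so nothing is read from the place of the 5 outside the family. Within the family, the correlation with S100A4 was 0.81 for S100A13, 0.74 for S100A10 and 0.31 for S100A16. It was −0.04 for S100A3, −0.26 for S100A2, −0.31 for S100A11 and −0.60 for S100A6. MT2A was measured at 309.0, 261.3 and 394.6 FPKM in Con and at 760.9, 754.7 and 1287 FPKM in GLUP, with a log2 fold change of 1.51 (SE 0.31). MT1X read 65.1, 69.6 and 70.8 FPKM in Con and 102.2, 108.7 and 157.8 FPKM in GLUP, a log2 fold change of 0.81 (SE 0.30). Both had, like S100A4, their highest value in GLUP 3. RPL27A was at 1.34 (SE 0.30), C1orf53 at 0.85 (SE 0.28) and CSTB at 0.75 (SE 0.30). Of these, C1orf53 is the only one on chromosome 1. S100A4, which was chosen for its rise, was the highest of the 6 in log2 fold change.

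**Figure D4:**
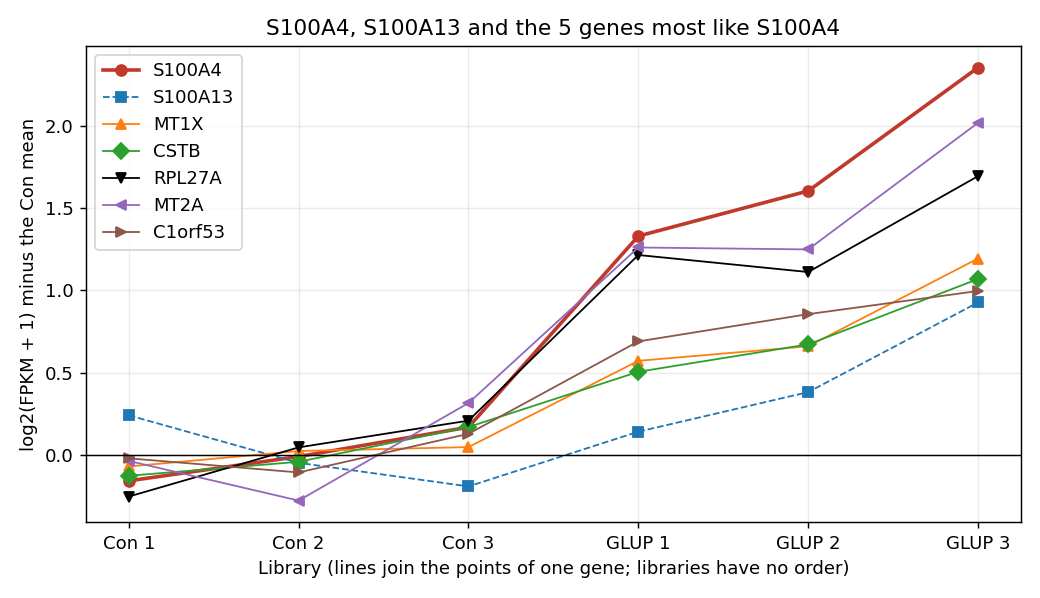
Log2(FPKM + 1) in each library minus the Con mean, for S100A4, the 5 genes most like it and S100A13 (dashed); lines join the points of one gene and the libraries have no order. S100A4 and the 5 genes lie above their Con values in all GLUP libraries, and S100A13 in GLUP 1 lies below its value in Con 1.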

How the data were processed

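RNA from 3 Con and 3 GLUP libraries of HGC-27 cells was measured by RNA-seq. The deposited values are FPKM made by the authors (whole table, 1 column per library); the submitters' processing notes name HISAT2, Cufflinks, RSEM and GRCh38.p10, but 53057 of 62492 gene identifiers carry the suffix of an annotation lifted to GRCh37, so the build behind the FPKM is uncertain. Versions and strand are not given in the sources used here. The 49 pseudoautosomal Y rows, all 0, were added to their X copies. Gene positions, exons and spans came from GENCODE 44 lifted to GRCh37, and promoters from RefSeq.

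Genes whose mean reached 1 FPKM were fitted as log2(FPKM + 1) with limma 3.58.1 (R 4.3.3, eBayes with trend, two-sided, Benjamini-Hochberg over all genes tested). The pseudocount understates changes of low genes. An exact permutation test of 3 against 3 cannot go below p = 0.1, so none was run. GC and length trends were removed per library with a loess curve of span 0.5. The fit was tested on simulated data. The members and lists were chosen with earlier results of these data known; named genes are all S100 genes, the 2 highest and 2 lowest tested genes of each list and the 5 protein-coding genes most like S100A4. Alternatives covered pseudocount, filter, scaling, each library left out in turn and a block for the replicate number.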

Additional observations from a re-analysis of the deposited data

How the results depend on the processing

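S100A4 kept its direction in all 20 alternatives, with log2 fold changes from 1.47 (without GLUP 3) to 2.06 (trimmed means of log ratios). That gene was chosen because its GLUP values all lay above its Con values. Leaving out 1 library could therefore not turn its direction, and nothing is read from this. Over all genes the count with an adjusted p under 0.05 was 0 as reported, 1 at a minimum of 5 FPKM (CLPTM1L), 2 after correction for GC and length (CLPTM1L and HSPB1) and 1 with eBayes without trend. Leaving out 1 library gave 0 to 1367, with 3 without Con 2 and 1367 without Con 3; no other left-out library gave any. Over the S100 genes that count was 0 in every alternative except those that leave out a library, where it was 0 to 1. The median of the neighbours within 1 Mb, 0.13 as reported, was 0.40 with upper quartile scaling, 0.41 with trimmed means, 0.39 centred on the median and 0.35 after correction for GC and length, with or without the replicate block. Leaving out 1 library gave 0.06 (without Con 2) to 0.31 (without Con 1). The cause was not tested. The median of the 7 members other than S100A4 ranged from −0.21 to 0.20 and took the sign of the main value in 14 of 20 alternatives.

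Same-numbered libraries did not deviate together (correlations of 0.13, −0.01 and −0.17). This gave no sign of pairing but cannot exclude it, because the Con libraries also differ in how they follow GC content. The labels do not say whether the numbers pair samples. With the replicate number as a block, 1 gene over the table was called (ENSG00000261553), with or without the GC and length correction, and no S100 gene. FPKM without counts gives no depth, which limits S100A3, S100A6, S100A14 and S100P most.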
